A study of Mus musculus with 2 samples.

Results

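Mature enterocytes are the absorptive cells of the villus, and those described here were the cells rich in apolipoprotein transcripts that turned up among jejunal cells sorted for an Lgr5 reporter. Barcodes were kept if 500 or more genes were detected and mitochondrially encoded genes took no more than 20% of the unique molecular identifiers (UMIs, 1 per captured molecule). The members were chosen by their measured apolipoprotein transcripts: a kept cell was a member where Apoa1, Apoa4 and Apoc3 together made up 0.5% or more of its UMIs. The rule also asked for under 10% of UMIs from Lyz1 and the Defa genes, which mark Paneth cells, and under 2% from the goblet cell genes Muc2, Fcgbp, Tff3, Agr2 and Spink4. It found 403 members among 22282 kept cells (1.81%).

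The cells came from jejunum of mice, labelled female and 10 to 12 weeks old, that carried the Lgr5-eGFP-IRES-CreER allele. This allele places a green reporter under the control of the stem cell gene Lgr5 and was shared by both groups. One group was given an antagonist of the Wnt receptors FZD5 and FZD8, and the other an Fc control. Each group had 3 mice pooled into 1 droplet-based 3' library (10x Genomics, V3.1 NextGEM), so no difference could be set against the spread between mice. The sources used here state neither the dose nor the length of the treatment. All intervals below are exact 95% intervals for counting error alone, and no test across samples was possible.

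Enterocytes form from stem cells of the crypt and climb the villus until they are shed at its tip. On the way they take up fat and pack it with apolipoproteins into chylomicrons, digest peptides and sugars at a brush border of microvilli, and carry the products into the blood. Cells of the lower villus are known for antimicrobial products, and those of the tip for purine-handling and late differentiation genes. Wnt proteins act through Frizzled receptors and are known for keeping the stem cells at the base of the crypt.

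Both libraries are labelled female, but their sex-linked transcripts differed. Xist, the RNA that silences an X chromosome in female cells, had 195 UMIs in antagonist members and 1 UMI in control members. Uty, Kdm5d, Eif2s3y and Ddx3y, which lie on the Y chromosome, together had 21 UMIs in antagonist members (17.9 CPM, counts per 1000000 UMIs of the members) and 85 UMIs in control members (74.3 CPM). A Y-linked UMI was found in 16 of 261 antagonist members and 62 of 142 control members, and an Xist UMI in 96 antagonist members and 1 control member. Among the other kept cells, 2.34% of antagonist and 41.1% of control cells had a Y-linked UMI. An Xist UMI was found in 67.8% of the other antagonist cells, beside 36.8% of antagonist members, and in 0.755% of the other control cells. The condition and whatever set these transcripts apart cannot be told apart in any comparison below. The libraries shared 145 barcodes, 67 of them kept in both, and no member barcode was shared.

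Members made up 261 of 11019 kept antagonist cells (2.37%, 2.09 to 2.67%) and 142 of 11263 kept control cells (1.26%, 1.06 to 1.48%). Antagonist members were shallower, with a median of 3625 UMIs and 1348 genes, against 6391.5 UMIs and 2002.5 genes in control members. Together they held 1171296 UMIs in the antagonist library and 1144474 UMIs in the control library, so the summed depth was nearly alike. The apolipoprotein share of a member had a median of 1.42% (0.501 to 8.36%) in the antagonist library and 1.66% (0.547 to 9.17%) in the control library. The highest shares just outside the limit were 0.492% in the antagonist library and 0.498% in the control library. Fewer than 10 apolipoprotein UMIs carried the call in 31 antagonist members and 1 control member. With every cell first thinned to 2000 UMIs, and shallower cells left out, 180 of 6904 antagonist cells (2.61%) and 139 of 8883 control cells (1.56%) met the rule. The sort on the reporter, the depth and the apolipoprotein RNA outside members can each set these shares, and their part was not tested. Barcodes with under 500 genes had 0.0511% apolipoprotein UMIs in the antagonist library and 0.0171% in the control library.

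**Figure D1:**
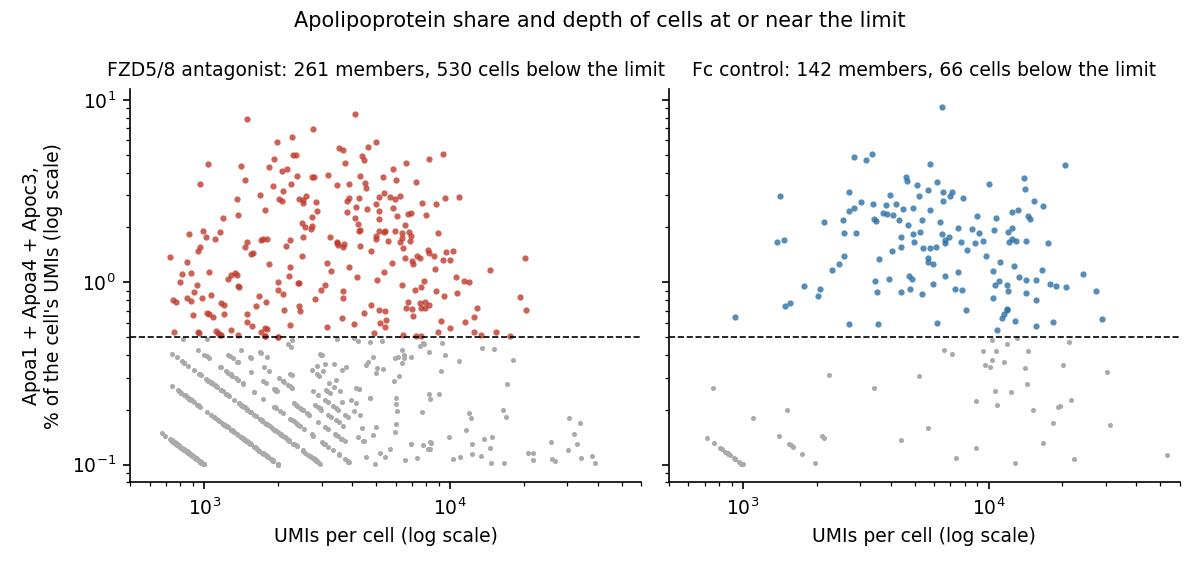
Apolipoprotein share of each cell (vertical, log scale) against its UMIs (horizontal, log scale), antagonist library left and control library right, for kept cells with a share of 0.1% or more within the Paneth and goblet limits. Coloured points above the dashed limit of 0.5% are the 261 antagonist and 142 control members, and grey points are the 530 antagonist and 66 control cells below it, many of the antagonist ones lying on stripes of a few apolipoprotein UMIs at low depth.

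Markers that the rule did not use were those of enterocytes. Alpi, the intestinal alkaline phosphatase of the brush border, stood at 1009 CPM in antagonist members, against 827 CPM in control members. Its level was 24.9 times the other kept cells in the antagonist library and 83.6 times in the control library. Fabp1, a fatty acid carrier of the cytosol, reached 18991 CPM in antagonist members, against 28154 CPM in control members, and its level was 16.5 (antagonist) and 54.6 (control) times that of the other kept cells of its library. Both ratios describe cells that the rule had picked and are no test. All 20 further enterocyte markers were at least 2-fold above the other kept cells in both libraries, as were 15.9% of the 6897 genes measured (20 or more UMIs over the members of both libraries), while 18.6% were at least 2-fold below them. The markers of T, B, myeloid, stromal and erythroid cells were at or near 0: 10 of 12 T and NK cell markers had no UMI in antagonist members and 12 of 12 none in control members. Of 10 B and plasma cell markers 9 were at 0 in each library, of 10 myeloid markers 8 were at 0 in antagonist members and 10 in control members, and no stromal, endothelial or erythroid marker had a UMI. Lgr5 itself had 0 UMIs in antagonist members, where a floor of 3 counts is 2.56 CPM, and 7 UMIs (6.12 CPM) in control members, although the sort had been for the Lgr5 reporter.

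The rule genes lie side by side on chromosome 9 (GRCm38): Apoa1 at 46228580 to 46230466, Apoc3 at 46232933 to 46235636 and Apoa4 at 46240696 to 46243459. Apoa1, a structural protein of high-density lipoprotein and chylomicrons, had 11459 CPM in antagonist members, against 11912 CPM in control members. Apoa4, which coats chylomicrons, had 4022 CPM in antagonist members, against 3634 CPM in control members, and Apoc3, an inhibitor of lipoprotein lipase, had 1956 CPM (antagonist) and 1754 CPM (control). These levels chose the members and are given as a description.

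Ranked by the lower of the ratios of members over the other kept cells in both libraries, the leading genes outside the apolipoproteins were Pdzk1, Dnase1, Cyp2b10, Cyp3a11, Bst1, Leap2, Slc2a2, Lct, Pck1 and Ggt1. Pdzk1, a scaffold that anchors transporters in the brush border, was 141 (antagonist) and 534 (control) times as high in members as in other cells of the same library, and the DNA-degrading enzyme Dnase1 140.2 (antagonist) and 171 (control) times. For the drug-metabolising cytochromes the ratios were 113 (antagonist) and 918 (control) for Cyp2b10 and 107 (antagonist) and 888 (control) for Cyp3a11. Slc2a2, the glucose exit carrier, had ratios of 82.0 (antagonist) and 216 (control), and Lct, the lactase, of 79.5 (antagonist) and 363 (control). All 10 ratios were larger in the control library. The 20 further enterocyte markers summed to 6293 CPM in the other antagonist cells and 3025 CPM in the other control cells, and the members held 62.4% of all apolipoprotein UMIs of kept antagonist cells and 86.9% of those of kept control cells.

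Members differed among themselves along the apolipoprotein share. Ada, adenosine deaminase and a tip gene, had 2.52 CPM in antagonist cells, against 9.05 CPM in control cells, in members with 1 to 2% apolipoprotein UMIs. In members with 2 to 5% it had 87.7 CPM (antagonist) and 342 CPM (control), and in those with 5% or more 3864 CPM (antagonist) and 5587 CPM (control). Krt20, a keratin of the villus surface, had 309 CPM (antagonist) and 403 CPM (control) in members with 0.5 to 1% and 658 CPM (antagonist) and 983 CPM (control) in those with 2 to 5%. Klf4, a transcription factor of differentiation, had 13.7 CPM (antagonist) and 13.8 CPM (control) in the lowest band and 94.4 CPM (antagonist) and 118 CPM (control) at 2 to 5%. The highest band held 11 antagonist members and 2 control members, so its levels are those of a few cells. Slc5a1, the sodium-glucose carrier, had 1356 CPM (antagonist) and 1630.1 CPM (control) at 0.5 to 1% and 4098 CPM (antagonist) and 2501 CPM (control) at 2 to 5%, while Sis, sucrase-isomaltase, had 1562 CPM (antagonist) and 2083 CPM (control) and then 3538 CPM (antagonist) and 2359 CPM (control). Fabp1 and Rbp2, the cellular retinol carrier, were highest between 0.5 and 5% and lower at 5% or more in both libraries. At 0.5 to 1% there were 93 antagonist and 36 control members, at 1 to 2% 84 antagonist and 55 control members, and at 2 to 5% 73 antagonist and 49 control members.

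**Figure D2:**
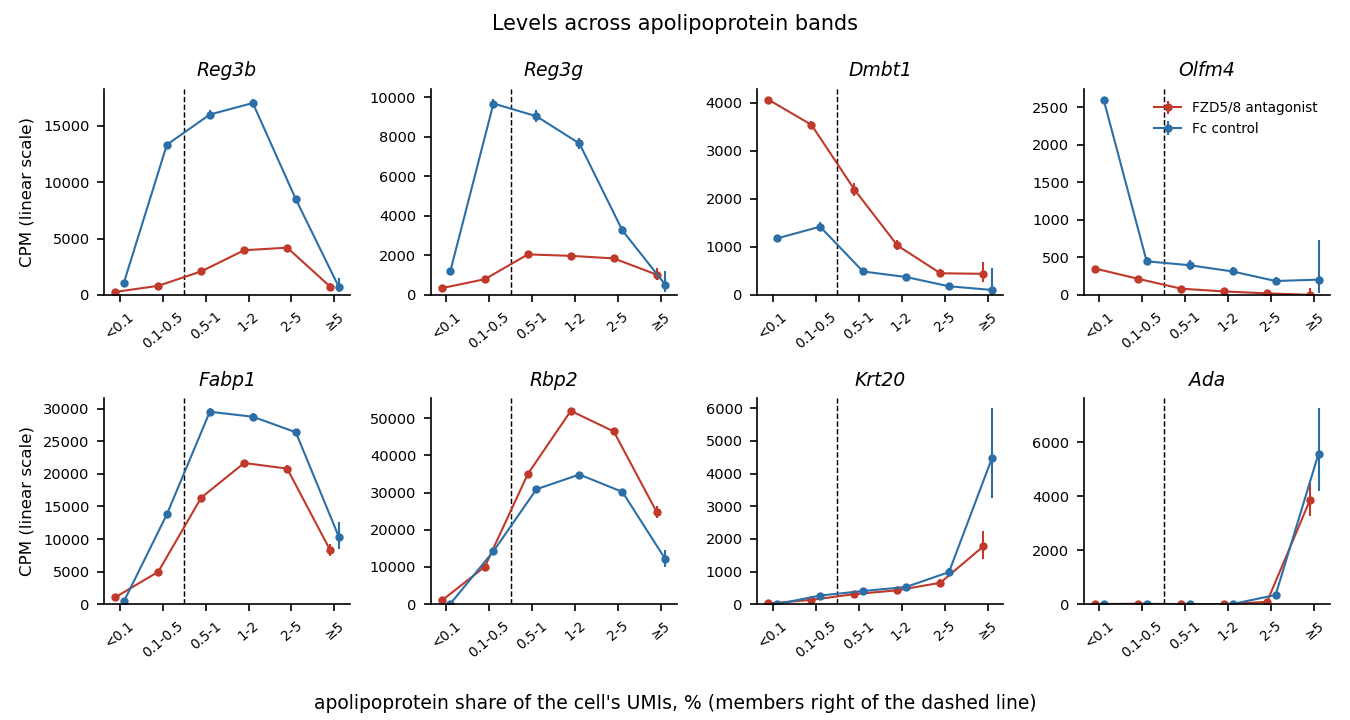
CPM (vertical, linear scale from 0) of 8 genes in bands of the apolipoprotein share of the cell (horizontal, percent of UMIs), antagonist in red and control in blue, with exact 95% Poisson intervals as bars; members lie right of the dashed line. Reg3b and Reg3g were far lower in antagonist cells in the bands from 0.5 to 2%, Dmbt1 was higher in every band from under 0.1% to 2 to 5%, and Ada and Krt20 were highest at 5% or more in both libraries.

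Within members, a gene was counted as past the fold at 1.5-fold or more in either direction. By as much, 8.63% of all 6897 genes measured were higher and 9.53% lower. Sparse genes passed it more often: of the 2778 genes with 100 or more UMIs, 99 were higher and 92 lower. Of the 20 further enterocyte markers, 1 was past the fold upwards and 0 downwards. That gene was Slc6a19, the carrier of neutral amino acids, with 188 CPM in antagonist members, against 121 CPM in control members, a ratio of 1.56 (1.25 to 1.94); its log2 ratio of 0.64 was 0.33 in members thinned to 2000 UMIs, which ends the call. The median log2 ratio of the list was 0.08, beside -0.0046 for all genes measured and 1.62 for the same list in the other kept cells. Sis had 2333 CPM in antagonist members, against 2331 CPM in control members, and Anpep, aminopeptidase N, had 1843 CPM (antagonist) and 1682 CPM (control). Rbp2 had 43258 CPM in antagonist members, against 32047 CPM in control members, a ratio of 1.35 (1.33 to 1.37) that stayed under the fold, although its log2 ratio of 0.43 was 0.71 in members thinned to 2000 UMIs.

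Of 29 measured genes of fat uptake and chylomicron assembly, none was higher by 1.5-fold and 2 were lower, Tm6sf2 and Abca1, beside 8.63% higher and 9.53% lower among all genes measured. Their median log2 ratio was -0.11. Among genes with 100 or more UMIs, 99 of 2778 were higher and 92 lower by 1.5-fold. Apob, the backbone of the chylomicron, had 1187 CPM in antagonist members, against 1192 CPM in control members. Mttp, which loads it with lipid, had 1223 CPM (antagonist) and 1250.4 CPM (control), and Dgat1, which makes triglyceride, 594 CPM (antagonist) and 591 CPM (control). Tm6sf2, a protein of lipoprotein lipidation, had 211 CPM in antagonist members, against 335 CPM in control members, a ratio of 0.630 (0.535 to 0.741). Its log2 ratio of -0.67 was -0.37 in members thinned to 2000 UMIs. Abca1, a cholesterol exporter, was sparse at 9.39 CPM (antagonist) and 16.6 CPM (control), and its log2 ratio of -0.80 was -0.38 with the limit of the rule at 2%. Fabp1, with 18991 CPM in antagonist members, against 28154 CPM in control members, had a ratio of 0.675 (0.663 to 0.686) and came close to the fold without passing it. Tuft-marker cells, described with Reg3b, held 8829.6 CPM (antagonist) and 9760.3 CPM (control). Leaving out members that had a stem, cycling, enteroendocrine or tuft cell UMI kept 184 antagonist and 46 control members, here and below. In those the log2 ratio of Fabp1, -0.57, was -0.86, past the fold. It was below control in each band of members up to 2 to 5%, with 16352 CPM (antagonist) and 29522 CPM (control) at 0.5 to 1%, 21662 CPM (antagonist) and 28757 CPM (control) at 1 to 2% and 20796 CPM (antagonist) and 26379 CPM (control) at 2 to 5%.

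Digestive enzymes and carriers of the brush border were counted against the same shares of all genes measured, 8.63% higher and 9.53% lower. For the 2778 genes with 100 or more UMIs the counts were 99 higher and 92 lower. Of 11 measured peptidases 1 was past the fold upwards and none downwards, and of 6 measured disaccharidases and other hydrolases none was past it in either direction. The peptidase was Ace, angiotensin-converting enzyme, with 634 CPM in antagonist members, against 395 CPM in control members, a ratio of 1.61 (1.43 to 1.81), with a log2 ratio of 0.68 that was 0.56 with the limit at 0.25%. Dpp4, dipeptidyl peptidase 4, had 406 CPM (antagonist) and 497 CPM (control). The carriers of sugar, amino acids and peptides numbered 18, with Slc6a19 past the fold upwards and Slc28a2, a purine nucleoside carrier with 7 UMIs in antagonist and 24 UMIs in control members, downwards. None of 19 measured microvillus genes was past the fold, with Espn, which bundles actin, at 133 CPM (antagonist) and 197 CPM (control) and Krt8 at 992 CPM (antagonist) and 713 CPM (control). None of 32 nuclear-encoded respiratory chain genes (median log2 ratio 0.17) and none of 13 mitochondrially encoded genes (-0.01) was past it.

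**Figure D3:**
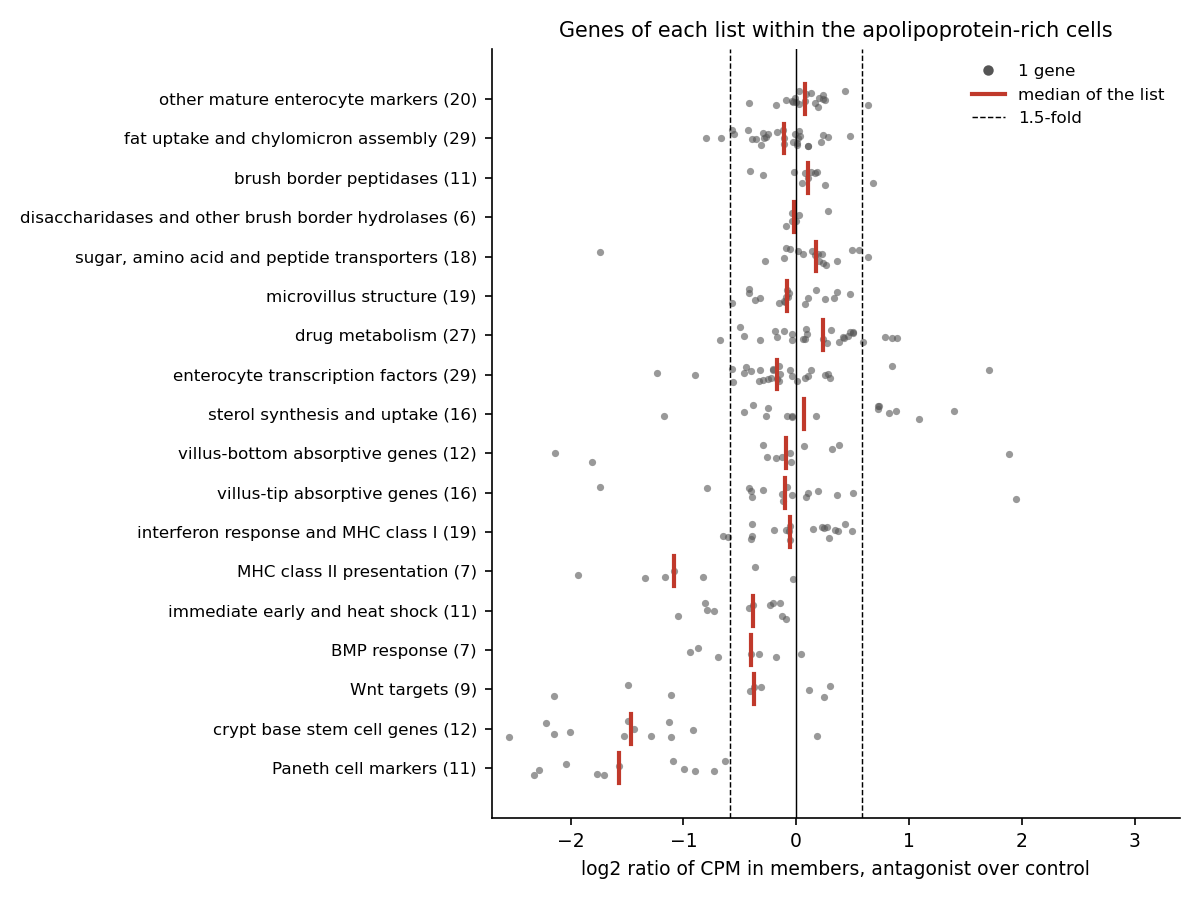
log2 ratio of CPM within members, antagonist over control (horizontal), for each measured gene of 18 lists (grey points), with the median of the list as a red bar and dashed lines at 1.5-fold; the number of genes measured follows each name. The absorptive lists at the top centre near 0, with medians from -0.11 to 0.18, and MHC class II, crypt base and Paneth lists lie lower, with medians of -1.08, -1.46 and -1.57.

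The antimicrobial lectins Reg3b and Reg3g had the lowest and next lowest ratios among the 135 genes with a mean of 1000 CPM or more in members. Their RefSeq promoters (GRCm38.p6, 250 bases before to 50 bases after the annotated start, 5' to 3') are shown with those of Reg3a and Reg1, members of the same chromosome 6 family whose ratios were near 1 over all members together. Capitals mark TATAAA, the TATA box, and TTCNNNGAA, the letters bound by STAT factors, each searched on both strands. Reg3b covers chr6:78370635-78370934 (plus strand), Reg3g chr6:78468825-78469124 (minus strand), Reg3a chr6:78380459-78380758 (plus strand) and Reg1 chr6:78425733-78426032 (plus strand).
Reg3b: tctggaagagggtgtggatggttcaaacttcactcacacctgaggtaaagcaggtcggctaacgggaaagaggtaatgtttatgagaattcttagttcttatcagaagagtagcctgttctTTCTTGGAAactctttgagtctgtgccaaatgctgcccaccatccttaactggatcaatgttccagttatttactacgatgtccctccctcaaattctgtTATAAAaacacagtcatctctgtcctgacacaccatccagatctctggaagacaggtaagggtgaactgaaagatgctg
Reg3g: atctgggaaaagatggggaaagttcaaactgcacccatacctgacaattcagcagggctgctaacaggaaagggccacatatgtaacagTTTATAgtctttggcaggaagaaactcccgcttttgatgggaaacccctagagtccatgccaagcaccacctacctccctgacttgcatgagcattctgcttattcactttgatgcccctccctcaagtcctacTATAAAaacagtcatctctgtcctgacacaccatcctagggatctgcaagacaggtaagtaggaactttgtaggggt
Reg3a: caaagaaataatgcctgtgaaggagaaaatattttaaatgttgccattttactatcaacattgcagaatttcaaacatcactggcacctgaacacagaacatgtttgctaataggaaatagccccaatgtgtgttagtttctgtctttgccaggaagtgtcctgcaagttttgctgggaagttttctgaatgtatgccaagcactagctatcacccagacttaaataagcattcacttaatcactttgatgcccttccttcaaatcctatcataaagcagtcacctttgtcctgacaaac
Reg1: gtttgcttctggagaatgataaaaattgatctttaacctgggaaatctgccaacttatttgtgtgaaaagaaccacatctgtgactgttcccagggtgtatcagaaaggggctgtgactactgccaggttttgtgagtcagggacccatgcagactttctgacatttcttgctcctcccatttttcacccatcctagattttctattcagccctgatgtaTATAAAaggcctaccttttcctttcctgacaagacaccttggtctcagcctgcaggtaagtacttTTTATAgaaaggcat

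The promoters of Reg3b and Reg3g were the most alike of the 6 pairs, with 69.1% of aligned positions identical and a longest shared run of 29 bases, against 49.7 to 55.4% for the other pairs. TATAAA on the gene's own strand began 29 bases before the start in Reg3b, 27 in Reg3g and 30 in Reg1, and was found on neither strand in Reg3a. TTTATA, which is TATAAA read on the opposite strand, was also found 161 bases before the start in Reg3g and after the start in Reg1. Of 32851 RefSeq mouse promoters of this length 13.6% hold TATAAA. TTCNNNGAA was found in Reg3b alone of these promoters, 129 bases before the start, and 8.30% of all promoters hold it. The CDX letters TTTATG, present in 11.9% of all promoters, were found in Reg3b 172 bases before the start. In Reg3a they were found on the opposite strand after the start, where the sequence reads CATAAA. The GATA letters AGATAA, present in 11.2%, were found in none of the 4. Alignments ran over whole windows, so identity depends on where the annotated starts lie. These are matches of letters and show no binding.

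Reg3b (chromosome 6, 78370657 to 78373466, plus strand, in the GENCODE annotation of GRCm38, whose gene starts can differ from the RefSeq ones) had 3753 UMIs in antagonist members and 16137 UMIs in control members. That was 3204 CPM in antagonist members, against 14099.9 CPM in control members, 4.40-fold lower (4.25 to 4.56). Reg3g (chromosome 6, 78466269 to 78468872, minus strand), a lectin that keeps bacteria off the epithelium, had 1933 CPM in antagonist members, against 6759 CPM in control members, 3.50-fold lower (3.34 to 3.67). Both are close relatives, and how reads shared between them were assigned is not given in the sources used here. Reg3b was found in 64.4% of antagonist members and 97.9% of control members, and at 2000 UMIs a cell in 67.4% of antagonist and 90.4% of control members. In cells with tuft cell markers, taken as a class that should lack these genes (200 antagonist cells with a median of 1758 UMIs and 217 control cells with a median of 3937 UMIs), it was found in 8.50% of antagonist and 37.8% of control cells. Its level there was 55.8 CPM in antagonist tuft-marker cells and 585 CPM in control ones, far under that of members.

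Of 12 measured villus-bottom genes, Reg3b and Reg3g were past the fold downwards and Dmbt1, described further on, upwards, with a median log2 ratio of -0.09. Beside them, 8.63% of all genes measured were higher and 9.53% lower by as much. Other measured Reg genes were under the fold over all members together. Reg3a had 572 CPM in antagonist members, against 594 CPM in control members, a ratio of 0.963 (0.864 to 1.07), and Reg1, a secreted protein of the same fold, had 4853 CPM in antagonist members, against 4634 CPM in control members, a ratio of 1.05 (1.01 to 1.09). Single bands differed, with Reg1 at a ratio of 1.65 (1.53 to 1.78) at 0.5 to 1%, past the fold, 0.799 at 1 to 2% and 1.08 at 2 to 5%. Reg3a had ratios of 0.700, 1.35 and 0.960 in the same bands. At 5% or more Reg1 had a ratio of 5.50 on 115 antagonist and 5 control UMIs. In the other kept cells the log2 ratio was 1.10 for Reg1 and 1.05 for Reg3a. The gap for Reg3b was wider in the members of lower apolipoprotein share. Reg3b had 2083 CPM in antagonist cells, against 16008 CPM in control cells at 0.5 to 1%. It had 3961 CPM (antagonist) and 17028 CPM (control) at 1 to 2%, 4189 CPM (antagonist) and 8495 CPM (control) at 2 to 5%, and 729 CPM (antagonist) and 711 CPM (control) at 5% or more, where the ratio was 1.03 (0.441 to 2.77) on 30 UMIs from 11 antagonist cells and 7 UMIs from 2 control cells. Cells just outside the limit, at 0.1 to 0.5%, had 802 CPM (antagonist) and 13325 CPM (control), but they were unlike between the libraries. The 530 antagonist cells had a median of 1752.5 UMIs, with Paneth cell markers at 22756 CPM and goblet cell markers at 3776 CPM. The 66 control cells had a median of 6848 UMIs, with these markers at 4410 CPM and 190 CPM. Their Reg3b levels are therefore not a like-for-like comparison of enterocytes. Depth also differed more in the lower bands of members, and its part was not tested. Median UMIs were 2450 in antagonist and 10520.5 in control cells at 0.5 to 1%, 4036 in antagonist and 6653 in control cells at 1 to 2%, and 3812 in antagonist and 5118 in control cells at 2 to 5%. Reg3g had 2044 CPM (antagonist) and 9032 CPM (control) at 0.5 to 1%, 1973 CPM (antagonist) and 7655 CPM (control) at 1 to 2% and 1842 CPM (antagonist) and 3257 CPM (control) at 2 to 5%. At 5% or more it had 1021 CPM (antagonist) and 508 CPM (control), a ratio of 2.01 (0.796 to 6.51), on 42 antagonist and 5 control UMIs. The log2 ratio of Reg3b was -2.14 in members and -2.07 in the other kept cells, and that of Reg3g -1.81 and -1.89. Within members, with the limit at 2% apolipoprotein UMIs, those of Reg3b and Reg3g were -1.13 and -0.87, and in members thinned to 2000 UMIs -1.66 and -1.52.

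Transcripts of MHC class II presentation, the display of peptides to helper T cells, were mostly lower in antagonist members. Of 7 measured genes of the list 5 were past the fold downwards and none upwards, against 9.53% and 8.63% of all genes measured. The list's median log2 ratio was -1.08, beside -1.15 in the other kept cells. Cd74, the invariant chain that guides MHC class II molecules, had 312 CPM in antagonist members, against 789.9 CPM in control members, 2.53-fold lower (2.24 to 2.87). The class II chain H2-Ab1 had 69.2 CPM in antagonist members, against 147 CPM in control members, the chain H2-Aa 42.7 CPM (antagonist) and 76.0 CPM (control) and the chain H2-Eb1 29.0 CPM (antagonist) and 65.5 CPM (control). The peptide loader H2-DMb1 had 5 UMIs in antagonist and 20 UMIs in control members. Ctss, the protease that trims the invariant chain, had 131 CPM in antagonist members, against 133 CPM in control members. Without members that had a stem, cycling, enteroendocrine or tuft cell UMI the log2 ratio of H2-Eb1, -1.16, was -0.04, and that of Cd74, -1.34, was -1.49. Levels in tuft-marker cells were lower, with Cd74 at 139 CPM (antagonist) and 179 CPM (control) and Ctss at 10.7 CPM (antagonist) and 19.2 CPM (control). With the limit at 2% apolipoprotein UMIs the list's median was -0.37 over 5 genes, that of H2-Aa, and the log2 ratio of Cd74 was -0.80. Interferon response and MHC class I genes, by contrast, had 0 of 19 past the fold upwards and 2 downwards, Psmb8 with 359 CPM (antagonist) and 562 CPM (control) and Oas1a with 35.0 CPM (antagonist) and 53.3 CPM (control), and a median of -0.06. Psmb8 belongs to the immunoproteasome, and Oas1a senses viral RNA. The call of Oas1a ended in several settings. Its log2 ratio was -0.53 with the limit at 0.25% or 2%, -0.57 at 1% and -0.46 with cells thinned before the rule. It was -0.42 in members thinned to 2000 UMIs and -0.35 without members that had a stem, cycling, enteroendocrine or tuft cell UMI.

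Among other secreted defence products, Leap2, a peptide that blocks the ghrelin receptor, had 539 CPM in antagonist members, against 928 CPM in control members, 1.72-fold lower (1.56 to 1.90). Its level was 85.2 (antagonist) and 206 (control) times that of other kept cells. The log2 ratio of -0.78 was -0.42 with the limit at 2%, -0.46 with cells thinned before the rule and -0.56 in members thinned after it, all under the fold. Dmbt1 (chromosome 7, 131032053 to 131121630, plus strand), a secreted scavenger receptor of the gut lining, ran the other way with 1294 CPM in antagonist members, against 349.5 CPM in control members, 3.70-fold higher (3.31 to 4.14). It was lower in members than in other kept cells, at 0.335 (antagonist) and 0.320 (control) times their level. Tuft-marker cells held 834 CPM (antagonist) and 269.6 CPM (control), below but near the levels of members, and the part of free RNA in those levels was not tested. Across bands of members it had 2191 CPM in antagonist cells, against 486 CPM in control cells, at 0.5 to 1%, and 449 CPM (antagonist) and 178 CPM (control) at 2 to 5%.

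**Figure D4:**
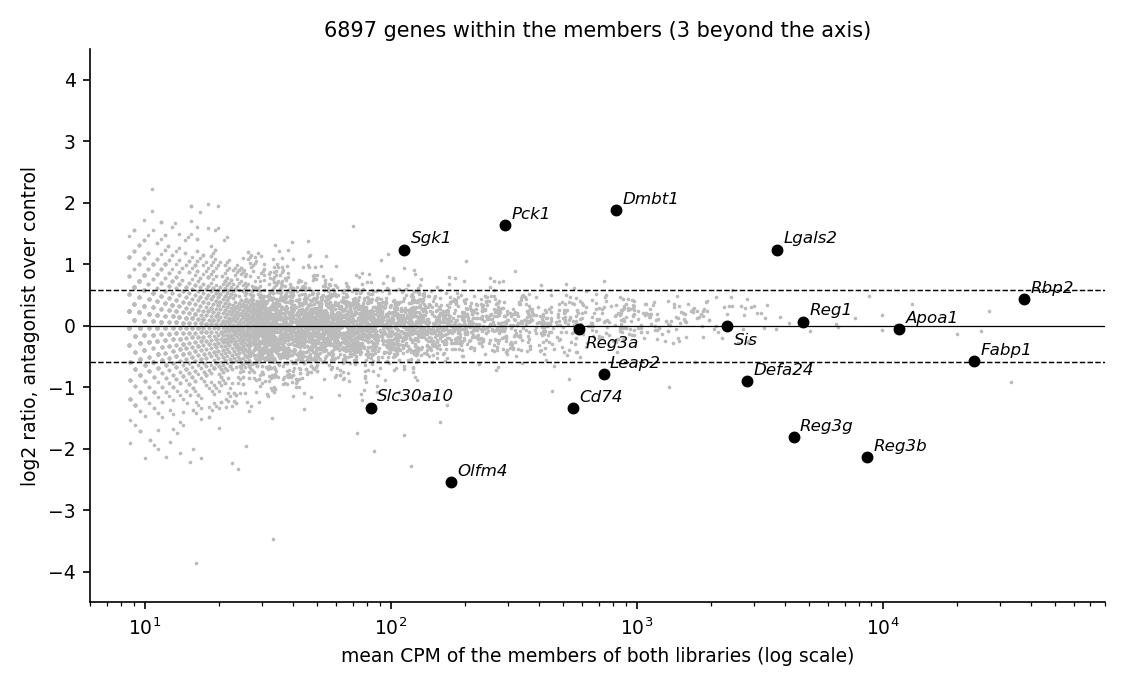
log2 ratio of CPM within members, antagonist over control (vertical), against the mean CPM of both libraries (horizontal, log scale) for 6897 genes with 20 or more UMIs, with dashed lines at 1.5-fold and 3 genes beyond the axis. Reg3b and Reg3g lie at -2.14 and -1.81 beside Reg3a and Reg1 near 0, while Dmbt1, Pck1, Lgals2 and Sgk1 lie highest among the labelled genes, at 1.89, 1.64, 1.24 and 1.24.

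Pck1, Sgk1 and Car4 were more than 1.5-fold higher in antagonist members and stood above the tuft-marker level in both libraries. Pck1 (chromosome 2, 173153048 to 173159273, plus strand), the gate enzyme of gluconeogenesis, had 441 CPM in antagonist members, against 141 CPM in control members, 3.13-fold higher (2.62 to 3.76). Tuft-marker cells had 0 CPM (antagonist) and 1.83 CPM (control). At 0.5 to 1% apolipoprotein UMIs it had 77.7 CPM (antagonist) and 58.0 CPM (control), a ratio of 1.34 (0.756 to 2.43). At 1 to 2% it had 386 CPM (antagonist) and 136 CPM (control), and at 2 to 5% 907 CPM (antagonist) and 239 CPM (control). Of 10 measured genes of fructose use and gluconeogenesis, Pck1 was past the fold upwards, and Pklr, pyruvate kinase, and G6pc, glucose-6-phosphatase, downwards. As a share of all genes measured, 8.63% were higher and 9.53% lower by as much. Pklr had 38.4 CPM (antagonist) and 84.8 CPM (control), and G6pc 7.68 CPM (antagonist) and 14.0 CPM (control). The log2 ratio of G6pc, -0.83, was -0.46 with the limit of the rule at 1%. Khk, the fructose kinase, had 399 CPM (antagonist) and 477 CPM (control). Sgk1, a kinase that raises sodium uptake, had 159.7 CPM in antagonist members, against 67.3 CPM in control members, 2.37-fold higher (1.81 to 3.14), and 2.15 CPM (antagonist) and 7.31 CPM (control) in tuft-marker cells. Car4, a carbonic anhydrase of the cell surface, had 135 CPM in antagonist members, against 59.4 CPM in control members, 2.27-fold higher (1.70 to 3.06). The ratio of Car4 was 1.66 (1.07 to 2.60) at 0.5 to 1% and 2.05 (1.30 to 3.29) at 1 to 2%. At 2 to 5% it had 115 CPM (antagonist) and 12.1 CPM (control), on 34 antagonist and 4 control UMIs. In the cells at 0.1 to 0.5%, which were unlike between the libraries, Car4 ran the other way, with a ratio of 0.626 (0.518 to 0.758). Its log2 ratio of 1.18 was 2.99 with the limit at 2%, 2.23 with cells thinned before the rule and 0.66 without members that had a stem, cycling, enteroendocrine or tuft cell UMI. Lgals2, a galectin, had 5223 CPM in antagonist members, against 2209.8 CPM in control members, 2.36-fold higher (2.26 to 2.48), and tuft-marker cells held 13165 CPM (antagonist) and 10143 CPM (control), above the members of the same library. The part of RNA from other cells in its ratio was not tested. Its log2 ratio of 1.24 was 0.27 with the limit at 2%.

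Metal and vitamin carriers differed gene by gene. Past the fold were 1 of 10 measured upwards and 2 downwards, against 8.63% and 9.53% of all genes measured. Slc30a10, a manganese exporter, had 47.0 CPM in antagonist members, against 119 CPM in control members, 2.53-fold lower (1.84 to 3.53). Slc46a1, the proton-coupled folate carrier, had 89.6 CPM in antagonist members, against 161 CPM in control members, 1.79-fold lower (1.40 to 2.30), and its log2 ratio of -0.84 was -0.14 with cells thinned before the rule. Both were enterocyte transcripts, with levels over the other kept cells of 11.2 (antagonist) and 19.3 (control) times for Slc30a10 and 24.3 (antagonist) and 62.3 (control) times for Slc46a1. Tfrc, the transferrin receptor, had 66.6 CPM in antagonist members, against 25.3 CPM in control members, a ratio of 2.63 (1.70 to 4.18), beside 42.9 CPM (antagonist) and 28.3 CPM (control) in tuft-marker cells. Slc40a1, ferroportin, had 79.4 CPM (antagonist) and 76.0 CPM (control), and Slc39a4, the zinc carrier, had 105 CPM (antagonist) and 105 CPM (control).

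Drug and alcohol metabolism had 4 of 27 measured genes past the fold upwards and 1 downwards, against 8.63% and 9.53% of all genes measured. The median log2 ratio of the list was 0.24. Adh1, alcohol dehydrogenase, had 417 CPM in antagonist members, against 225 CPM in control members, 1.86-fold higher (1.59 to 2.17), and tuft-marker cells had 2083 CPM (antagonist) and 1526 CPM (control). The part of RNA from other cells was not tested. Maob, a monoamine oxidase, had 98.2 CPM in antagonist members, against 54.2 CPM in control members, 1.81-fold higher (1.32 to 2.51), and the aldo-keto reductase Akr1c13 had 218 CPM (antagonist) and 126 CPM (control). The glutathione transferase Gsta4 had 317 CPM (antagonist) and 211 CPM (control). Abcg2, an exporter of drugs and urate, was the lower one, with 94.8 CPM in antagonist members, against 151 CPM in control members, 1.60-fold lower (1.25 to 2.04). The call ended for Abcg2 without members that had a stem, cycling, enteroendocrine or tuft cell UMI (log2 ratio -0.41). For Gsta4 it ended with the limit at 0.25% (0.37), 1% (0.55) or 2% (0.52). It also ended for Gsta4 in members thinned to 2000 UMIs (0.43) and without the deepest 10% of members (0.53). The cytochromes that marked members were under the fold, with Cyp3a11 at 406 CPM (antagonist) and 287 CPM (control) and Cyp2b10 at 106 CPM (antagonist) and 98.7 CPM (control). Sterol synthesis and uptake had 7 of 16 past the fold upwards and 1 downwards, against the same shares of all genes measured. Its median was 0.07, and no gene was above 70.9 CPM. Idi1, an isomerase of the pathway, had 30.7 CPM in antagonist members, against 11.4 CPM in control members, beside 122 CPM (antagonist) and 119.7 CPM (control) in tuft-marker cells.

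Ion carriers and channels had 3 of 18 measured genes past the fold upwards and 1 downwards, against 8.63% and 9.53% of all genes measured. Apart from Car4 the higher ones were Guca2a, guanylin, with 72.6 CPM in antagonist members, against 45.4 CPM in control members, and Slc20a1, a phosphate carrier, with 23.1 CPM (antagonist) and 13.1 CPM (control). The log2 ratio of Guca2a, 0.67, was -0.24 with cells thinned before the rule, so its direction changed. Slc12a2, a chloride carrier of the crypt, was the lower one, with 54.6 CPM (antagonist) and 103 CPM (control) in members and 133 CPM (antagonist) and 264 CPM (control) in tuft-marker cells. Its log2 ratio of -0.91 was -0.17 without members that had a stem, cycling, enteroendocrine or tuft cell UMI and -0.57 with equal weight for each cell, and that of Slc20a1, 0.79, was 0.43 in cells with 1000 or more genes and 0.51 at a mitochondrial limit of 10%, each of which ends the call. Retinoid handling had 2 of 8 past the fold upwards, Adh1 and Lrat, which makes retinyl esters and had 24.8 CPM (antagonist) and 15.7 CPM (control), with a median log2 ratio of 0.45. The call for Lrat, at 0.64, ended with the limit of the rule at 0.25% (0.29), without the deepest 10% of members (0.41) and with equal weight for each cell (0.47). Fatty acid oxidation and ketogenesis had 2 of 20 upwards and 3 downwards, with a median of -0.04, and Crot, a carnitine transferase of peroxisomes, was the most abundant of these at 63.2 CPM (antagonist) and 106 CPM (control). For Crot the log2 ratio of -0.74 was -0.54 in members thinned to 2000 UMIs, under the fold. None of 10 measured genes of the p53 response and apoptosis passed it.

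Of 29 measured transcription factors of enterocytes, 2 were past the fold upwards and 2 downwards, beside 8.63% higher and 9.53% lower among all genes measured, with a median log2 ratio of -0.17. Of the factors that keep enterocyte genes on, Hnf4a had 115 CPM (antagonist) and 93.5 CPM (control), and Hnf4g 250.2 CPM (antagonist) and 345 CPM (control). Cdx2, a factor of intestinal identity, had 47.8 CPM (antagonist) and 55.0 CPM (control), and Maf, a bZIP factor, 325 CPM (antagonist) and 408 CPM (control). Nr5a2, a nuclear receptor, had 28 UMIs in antagonist members and 8 UMIs in control members. Gata5 had 15.4 CPM in antagonist members, against 36.7 CPM in control members, and Pparg, a lipid-sensing nuclear receptor, 6.83 CPM (antagonist) and 13.1 CPM (control). In tuft-marker cells Nr5a2 stood at 25.7 CPM (antagonist) and 25.6 CPM (control) and Gata5 at 42.9 CPM (antagonist) and 43.0 CPM (control). Their levels in members were no higher than those. The part of free RNA in either class of cells was not tested. The log2 ratio of Gata5, -1.23, was -0.42 with the limit at 2%.

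Of 7 measured genes of the bone morphogenetic protein (BMP) response, which is known for acting against Wnt along the villus, 3 were past the fold downwards and none upwards. All genes measured had 9.53% lower and 8.63% higher by as much, here and for the lists below. Smad7, an inhibitor of the pathway, had 37.6 CPM in antagonist members, against 69.0 CPM in control members, 1.84-fold lower (1.26 to 2.72), and of the inhibitors of differentiation Id3 had 69.2 CPM (antagonist) and 112 CPM (control), Id2 10.2 CPM (antagonist) and 20.1 CPM (control) and Id1 71.7 CPM (antagonist) and 81.3 CPM (control). In members thinned to 2000 UMIs the log2 ratio of Smad7, -0.87, was -0.50, with cells thinned before the rule -0.51, with the limit at 0.25% -0.54 and without members that had a stem, cycling, enteroendocrine or tuft cell UMI -0.28. That of Id2, -0.94, was -0.23 with equal weight for each cell, and without the deepest 10% of members that of Id3, -0.69, was -0.54. Id2 had 53.6 CPM (antagonist) and 36.6 CPM (control) in tuft-marker cells, above its level in members. The median log2 ratio was -0.40. It was 0.29 over 5 genes in the 184 antagonist and 46 control members without a stem, cycling, enteroendocrine or tuft cell UMI. Immediate early genes, which handling of tissue is known to raise, were counted in a list with heat shock genes. Of its 11 measured genes 4 were past the fold downwards and none upwards. Jun had 50.4 CPM (antagonist) and 105 CPM (control), Junb 64.9 CPM (antagonist) and 113 CPM (control) and Jund 202 CPM (antagonist) and 335 CPM (control), while Fos had 121 CPM (antagonist) and 132 CPM (control). Without members that had a stem, cycling, enteroendocrine or tuft cell UMI the log2 ratios of Jun and Jund, -1.05 and -0.72, were -0.39 and -0.44. Genes of the villus tip had 1 of 16 past the fold upwards and 2 downwards, with Krt20 at 488 CPM (antagonist) and 654 CPM (control) and Ada at 161 CPM (antagonist) and 151 CPM (control). Of the 188 UMIs of Ada in antagonist members 159 lay in the 11 cells with 5% or more apolipoprotein UMIs. For Ada the log2 ratio of 0.09 was -0.95 with bands weighted alike and 1.60 without members that had a stem, cycling, enteroendocrine or tuft cell UMI, past the fold in opposite directions. The tip gene past the fold upwards was Pmp22, whose 37 UMIs lay in 9 antagonist members and 9 UMIs in 2 control members; with bands weighted alike its log2 ratio of 1.95 was 0.61.

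Transcripts of crypt and secretory cells were also counted in members, mostly near or below their level in tuft-marker cells. Those cells were taken as lacking the Reg genes, and were not shown to lack crypt genes. Lgr5 was found in 3.50% of antagonist and 18.4% of control tuft-marker cells, beside 0% of antagonist and 4.93% of control members. A level below theirs therefore does not mark a background for stem cell and Wnt target genes. The shares over all genes measured were again 8.63% higher and 9.53% lower. All 11 measured Paneth cell markers were past the fold downwards, with a median log2 ratio of -1.57. They summed to 3183 CPM in antagonist members, against 6440 CPM in control members. The list includes Lyz1 and Defa genes, whose share the rule limited in each member, so the count is a description. Tuft-marker cells held 3327 CPM (antagonist) and 7398 CPM (control) of the same markers. The summed level in members was below theirs and is not read as expression or as a difference of the enterocytes. The part of free RNA was not tested. Lyz1, the Paneth cell lysozyme, had 33.3 CPM (antagonist) and 138 CPM (control) in members and 47.2 CPM (antagonist) and 125 CPM (control) in tuft-marker cells. Of 12 measured crypt base stem cell genes 11 were past the fold downwards. The whole list summed to 203 CPM (antagonist) and 697 CPM (control) in members, beside 719 CPM (antagonist) and 1709 CPM (control) in tuft-marker cells. Olfm4, a secreted stem cell marker, had 51.2 CPM in antagonist members, against 301 CPM in control members, 5.87-fold lower (4.45 to 7.85), and 144 CPM (antagonist) and 583 CPM (control) in tuft-marker cells. It was found in 14.9% of antagonist members and 60.6% of control members, beside 12.5% of antagonist and 56.7% of control tuft-marker cells. Wnt target genes had 3 of 9 past the fold downwards, Axin2, Rnf43 and Cdca7, with Axin2, a feedback inhibitor, at 5.98 CPM (antagonist) and 28.0 CPM (control) in members and 12.9 CPM (antagonist) and 41.1 CPM (control) in tuft-marker cells.

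Cycling genes were also below the tuft-marker level in sum. Top2a was found in 13.0% of antagonist and 16.6% of control tuft-marker cells, so their level does not mark a background for cycling genes either. In the S phase list 7 of 13 measured genes were past the fold upwards and 1 downwards, and in the G2 and mitosis list 6 of 12 upwards and none downwards. Set beside these are 8.63% and 9.53% of all genes measured. The S phase list summed to 354 CPM (antagonist) and 249 CPM (control) in members, beside 420 CPM (antagonist) and 380 CPM (control) in tuft-marker cells. The G2 and mitosis list summed to 544 CPM (antagonist) and 363 CPM (control) in members, beside 944 CPM (antagonist) and 889 CPM (control) in tuft-marker cells. Mki67, a marker of cycling cells, had 29.0 CPM in antagonist members, against 31.5 CPM in control members. Goblet cell markers had 6 of 7 past the fold upwards and none downwards. The list includes Muc2, Fcgbp, Tff3, Agr2 and Spink4, whose share the rule limited in each member, so the count is a description. Its markers summed to 518 CPM (antagonist) and 297 CPM (control) in members, beside 483 CPM (antagonist) and 385 CPM (control) in tuft-marker cells. Of the 39 Fcgbp UMIs in antagonist members 15 lay in 1 cell, with 13 cells having any, and control members had 0. No doublet was removed.

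**Figure D5:**
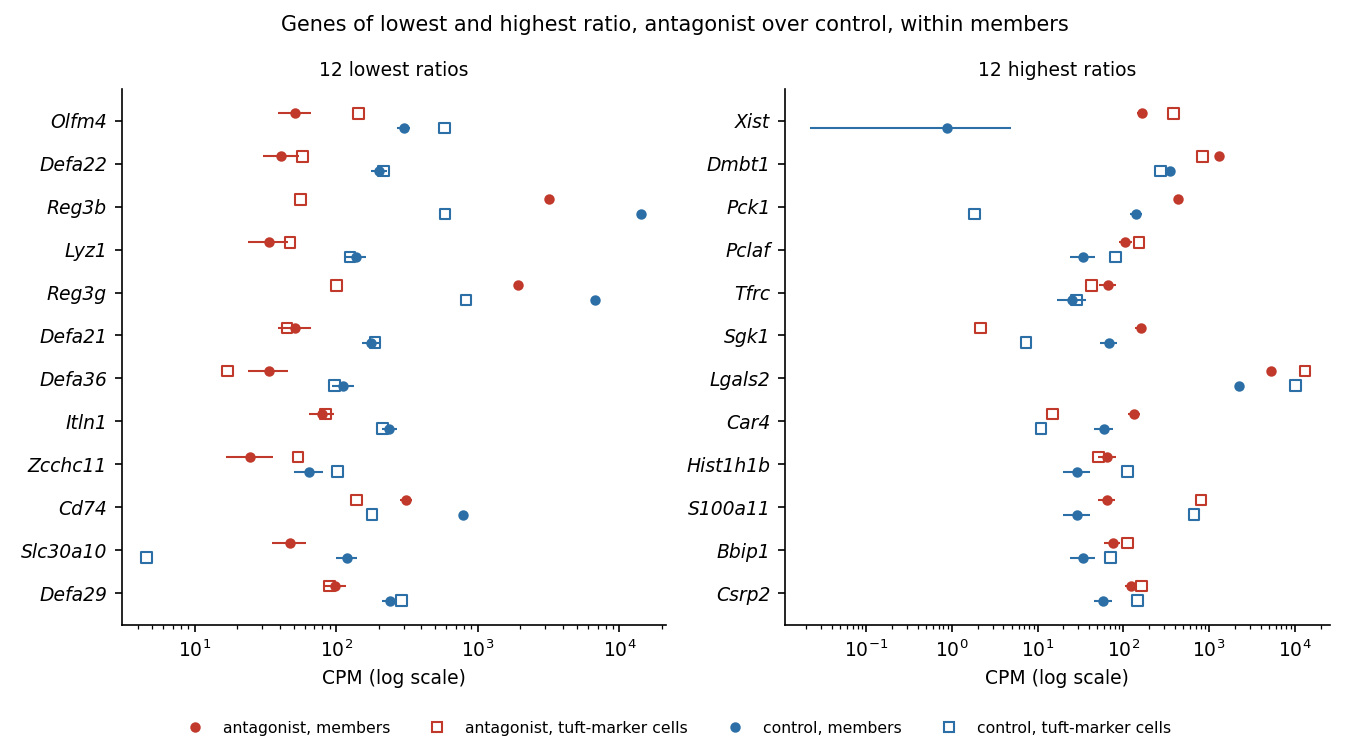
CPM (horizontal, log scale) of the 12 genes of lowest ratio (left) and of highest ratio (right) within members, antagonist above control for each gene; filled circles are members with exact 95% Poisson intervals, open squares are tuft-marker cells of the same library, left out where the level was 0. Members stood above 1.5 times the tuft-marker level in both libraries for Reg3b, Reg3g, Cd74 and Slc30a10 on the left and for Pck1, Sgk1 and Car4 on the right.

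Of the 12 genes with the lowest ratios, 4 stood above 1.5 times the tuft-marker level in both libraries: Reg3b, Reg3g, Cd74 and Slc30a10. The other 8 were Olfm4, the Paneth cell products Defa22, Lyz1, Defa21, Defa36, Itln1 and Defa29, and Zcchc11, a uridylyl transferase with 24.8 CPM (antagonist) and 63.8 CPM (control) in members and 53.6 CPM (antagonist) and 102 CPM (control) in tuft-marker cells. Of the 12 with the highest ratios, Pck1, Sgk1 and Car4 stood above it. The remaining 9 were Xist, Dmbt1, Pclaf, Tfrc, Lgals2, Hist1h1b, S100a11, Bbip1 and Csrp2, with ratios from 2.11 for Csrp2, a muscle-type LIM protein, to 3.70 for Dmbt1 and beyond for Xist. With cells thinned to 2000 UMIs before the rule the log2 ratios of Pclaf, Hist1h1b and Csrp2, 1.62, 1.16 and 1.07, were 0.45, 0.34 and 0.48, under the fold. Hist1h1b was also under it in members thinned after the rule, at 0.22, and Defa29, at -1.29, with the limit at 0.25%, at -0.34.

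The receptors that the antagonist blocks were little seen in members. Fzd5 had 62 UMIs in antagonist members and 44 UMIs in control members. Its level was 52.9 CPM (antagonist) and 38.4 CPM (control), a ratio of 1.38 (0.921 to 2.07), and tuft-marker cells had 51.5 CPM (antagonist) and 44.8 CPM (control). The log2 ratio of Fzd5, 0.46, was past the fold in members thinned to 2000 UMIs (1.23), with the limit at 2% (0.77) or at 0.25% (0.69) and with equal weight for each cell (0.77). Fzd8 had no UMI in either library, where a floor of 3 counts is 2.56 CPM in antagonist members and 2.62 CPM in control members.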

How the data were processed

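Per the submitters' processing notes the reads had been aligned to GRCm38 (mm10), and per the file headers Cell Ranger 3.1.0 made the matrices. As deposited by the authors the values were raw UMI counts for each gene and barcode. The matrices held 13085 antagonist and 12672 control barcodes with 55810293 and 67411637 UMIs, and 0 columns belonged to other samples. Kept cells had a median of 2732 UMIs in the antagonist library and 4478 in the control library. How barcodes had been chosen is not stated.

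UMIs of members were summed per library and scaled to CPM by their sum. Intervals at 95% are Poisson (exact) for levels, conditional binomial (exact) for ratios and Clopper-Pearson for shares. Genes with 20 or more UMIs over both libraries' members were measured, and log2 ratios had 0.5 added to each sum. Where a gene had 0 UMIs, its floor is 3 counts over the members of that library. Tuft-marker cells were kept cells outside the members within the Paneth and goblet limits and with 0.5% or more of UMIs from 10 tuft cell genes. Doublets were not removed. Values of 2 genes of the lists are not reported here.

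Named genes needed 50 CPM in either library and 100 UMIs in all. They were the 12 of highest and the 12 of lowest ratio, with the label's markers, Lgr5, Olfm4, Mki67, Fzd5 and Fzd8, the 12 genes highest in members over other cells, and the 2 highest and 2 lowest of each list with 20 CPM. Left out were gene models without a name and genes of ribosomal proteins, mitochondrial DNA, haemoglobins and immune receptors. Other genes of a list, and Reg3a and Reg1, were named as examples after their values were seen. The members, the lists and the rules were chosen with earlier results of these data known.

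The calculation was tested on simulated data. Alternatives were other limits of the rule, thinning, leaving out members with a stem, cycling, enteroendocrine or tuft cell UMI, other scalings and weights, and other count limits. Promoters came from RefSeq (GRCm38.p6), which matched 4 of 4 Reg genes searched. The software was Python 3.11.15 with numpy 2.4.6, scipy 1.17.1, pandas 2.3.3 and matplotlib 3.10.9, and edgeR 4.0.16 in R 4.3.3 for TMM factors alone.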

Additional observations from a re-analysis of the deposited data

Results flagged for a closer look

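Sgk1, the kinase that raises sodium uptake, differed in opposite directions in the members and in the remaining cells of the same libraries. Its log2 ratio of antagonist over control was 1.24 in members and -1.0 in the other kept cells. Tuft-marker cells, which are among the other kept cells, held 2.15 CPM in the antagonist library and 7.31 CPM in the control library. The difference between members and other cells was not tested, since each condition had 1 library. Of 6897 genes measured in members, 47 were past 1.5-fold in members and past it in the opposite direction in the other kept cells.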

How the results depend on the processing

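With 1 library per condition no replicate could be left out. No paired analysis was possible because each condition had 1 library of pooled mice. The share of members depended on the limit of the rule: it was 3.64% of kept antagonist cells with the limit at 0.25%, and at 1% it was 1.52% in the antagonist library and 0.941% in the control library. At 2% it was 0.762% and 0.453%. Without members that had a Mki67, Top2a, Lgr5, Olfm4, Chga or Dclk1 UMI it was 1.67% and 0.408%, and with cells thinned to 2000 UMIs before the rule it was 1.56% in the control library. The setting without those UMIs left 184 antagonist and 46 control members. Olfm4 alone had a UMI in 14.9% of antagonist and 60.6% of control members. Values of that setting therefore rest on few, selected control cells. The 595 genes past 1.5-fold upwards became 393 with the limit at 2%, 1099 with equal weight for each cell, 99 among genes with 100 UMIs, 2468 among genes with 1 UMI, and 388 in members thinned after the rule. The 657 lower genes became 92 among genes with 100 UMIs and 2432 among genes with 1 UMI. The count limits test fewer or more genes by construction. In the other settings the number of genes measured changed as well. From 6897 it became 3720 with the limit at 2%, 3629 in members thinned after the rule and 7067 with equal weight for each cell. Counts of higher and lower genes are therefore not comparable between settings without these totals, and any further cause was not tested. Without members that had one of the UMIs above, the median log2 ratio of the G2 and mitosis list was -0.17, that of Nusap1 -0.17 and that of Atf3 0.040, each opposite in sign to the value with all members. The list median there rested on 3 measured genes, against 12 with all members, and was the value of Nusap1 itself. Mki67 and Top2a, whose UMIs that setting leaves out, belong to the list, so it was thinned by construction. Guca2a was at -0.24 with cells thinned before the rule, again opposite in sign. Of 2885 alternative values for 172 genes, 2557 lay within the counting interval of the ratio, 325 outside it and 3 called ones changed sign. Of 537 for 31 lists, 499 moved by less than 0.5 of the 1.5-fold limit on the log2 scale, 37 by more and 1 called one changed sign. The 12 highest and the 12 lowest ratios, chosen as the extremes of these data, kept their direction in all 214 and 215 alternative values. For single genes the count limits return the same ratio by construction. Other totals shift all genes by 1 common amount, and the TMM factors were 0.9994 (antagonist) and 1.0006 (control). These alternatives could hardly move a gene, so the counts of unchanged values are not all separate checks. Thinning after the rule and leaving out genes near the tuft-marker level were chosen after seeing the data. Of the measured genes 4806 were at or under 1.5 times their level in tuft-marker cells in both libraries, among them 433 of the higher and 469 of the lower ones. Depth, the reporter sort, sex-linked transcripts and the condition cannot be told apart with 1 library each.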
